A study of Homo sapiens with 6 samples.

Results

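The genes described here encode the proteins with which a human cell senses stray nucleic acids, together with the enzymes that act on double-stranded RNA. They were taken as a fixed list of 10 genes, RIGI (also written DDX58), IFIH1, DHX58, MAVS, TLR3, ZBP1, EIF2AK2, ADAR, CGAS (MB21D1) and STING1 (TMEM173). No cut on a measured value defined the list, but it was chosen with earlier results of these data known. All 10 were found among the 24135 annotated protein-coding and lncRNA genes used for comparison. For each gene, the ChIP-seq regions within 1 kb of any of its annotated transcription start sites (TSSs) were collected and compared between control and DLEU1-depleted cells. The acetylated region at the start of IFIH1 and the trimethylated one of TLR3 lost much of their rank after DLEU1 depletion. At DHX58 an acetylated region was no longer called. RIGI, IFIH1 and EIF2AK2, and MAVS by little, fell further in rank in both marks when weaker peaks were left out. Changes over all genes were not computed with that cut. MAVS and CGAS hardly moved, and at ADAR the strongest regions of its 2 promoters had different ratios, with overlapping counting intervals.

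HSC3, an established cell line of oral squamous cell carcinoma (OSCC), was transfected with a control siRNA (siCONT) or with an siRNA against the lncRNA DLEU1 (siDLEU1) and collected 72 h later. In both groups, histone H3 lysine 27 acetylation (H3K27ac) and H3 lysine 4 trimethylation (H3K4me3) were profiled by ChIP-seq, with 1 library for each siRNA and mark and 2 input libraries that were not analysed here. No value below could be checked against a replicate, and no test between the groups was run. Since the cells of 1 line were pooled in each library, fewer cells carrying a mark and less of the mark in each cell cannot be told apart, and the loss of DLEU1 RNA was not analysed here. The deposited files are peak lists of 19705 regions (siCONT) and 17672 regions (siDLEU1) for H3K27ac and of 58582 and 56943 regions for H3K4me3. Library sizes of 21.5 M, 29.4 M, 28.4 M and 22.3 M reads, in the same order, were recovered from the lists under an assumed mappable genome of 2.7 Gb. Of 8 marker genes of squamous epithelium, all 8 had a region of either mark at a TSS in siCONT cells, and in siDLEU1 cells 7 kept one of H3K27ac and 8 one of H3K4me3. Of 8 markers of leukocytes, endothelium, fibroblasts and muscle, 1 had an H3K27ac region and 2 an H3K4me3 region, in both groups alike.

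Both marks sit at active gene starts, where H3K4me3 is typical of promoters and H3K27ac of active promoters and enhancers. RIG-I (encoded by RIGI) and MDA5 (IFIH1) are helicases that bind viral or endogenous double-stranded RNA in the cytoplasm and signal through MAVS, a protein of the mitochondrial outer membrane, while LGP2 (DHX58) is a related helicase that tunes them. TLR3 senses double-stranded RNA in endosomes. The enzyme cGAS (CGAS) binds cytoplasmic DNA and makes a cyclic dinucleotide that activates STING1. PKR (EIF2AK2) is a kinase that blocks translation when it binds double-stranded RNA, ADAR converts adenosine to inosine in such RNA and so keeps the cell's own transcripts from being sensed, and ZBP1 binds nucleic acids in the Z conformation and can start necroptosis. Many of these genes are themselves induced by interferon, through STAT and IRF proteins that bind interferon-stimulated response elements near the TSS.

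The promoters shown here are 4 at which an interferon-response type motif was found, with RIGI and the second ADAR promoter, which had no match to that motif. The sequences are from the GRCh37 (hg19) reference, run 5′ to 3′ on the strand of the gene from 170 bases before the TSS to 20 after it, and have the motif in capitals. The motif is GAAA, then any 2 bases, then GAAA again, which on the other strand reads as TTTC, any 2 bases and TTTC. The positions are chr2:163175174-163175364 for IFIH1, chr4:186990140-186990330 for TLR3, chr2:37384103-37384293 for EIF2AK2, chr1:154580642-154580832 and chr1:154600424-154600614 for the inner and outer starts of ADAR, and chr9:32526174-32526364 for RIGI. TLR3 is on the plus strand and the others are on the minus strand.
IFIH1: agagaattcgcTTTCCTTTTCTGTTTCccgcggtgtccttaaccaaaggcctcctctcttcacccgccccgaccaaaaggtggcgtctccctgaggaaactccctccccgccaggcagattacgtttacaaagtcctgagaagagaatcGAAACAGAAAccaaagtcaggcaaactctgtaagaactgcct
TLR3: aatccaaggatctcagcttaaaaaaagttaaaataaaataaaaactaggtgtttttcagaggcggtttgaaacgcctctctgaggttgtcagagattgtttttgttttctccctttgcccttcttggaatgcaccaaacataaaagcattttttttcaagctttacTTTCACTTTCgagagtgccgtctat
EIF2AK2: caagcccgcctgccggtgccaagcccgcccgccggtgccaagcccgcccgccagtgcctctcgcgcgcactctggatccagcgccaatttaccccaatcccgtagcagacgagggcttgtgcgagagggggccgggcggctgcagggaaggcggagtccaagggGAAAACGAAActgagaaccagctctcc
ADAR inner: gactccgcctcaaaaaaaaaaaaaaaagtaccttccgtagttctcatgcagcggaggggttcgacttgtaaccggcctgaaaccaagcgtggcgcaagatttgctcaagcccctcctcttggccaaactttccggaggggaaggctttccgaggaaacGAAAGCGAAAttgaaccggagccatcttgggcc
ADAR outer: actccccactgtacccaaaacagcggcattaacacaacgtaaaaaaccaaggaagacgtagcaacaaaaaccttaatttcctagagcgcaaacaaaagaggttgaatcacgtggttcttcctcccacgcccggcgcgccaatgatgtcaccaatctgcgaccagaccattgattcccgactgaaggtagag
RIGI: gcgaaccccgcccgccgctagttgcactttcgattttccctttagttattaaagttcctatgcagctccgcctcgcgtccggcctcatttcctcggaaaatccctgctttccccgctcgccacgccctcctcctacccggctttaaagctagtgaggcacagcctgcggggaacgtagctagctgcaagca

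A search from 250 bases before to 50 after the TSS found the motif at 4 of 9 promoters, the 2 ADAR starts being counted apart and the promoters of DHX58 and ZBP1 left out. The same window held it at 822 of 24020 genes, or 3.42%. The motif and its window were chosen after the ChIP-seq values had been seen, and a match describes letters, not a bound site. At IFIH1 there were 3 matches at 2 places, starting at −159, −153 and −21 bp from the TSS, and the pair farther upstream overlapped. Single matches began at −4 bp in TLR3, −6 bp in EIF2AK2 and −12 bp at the inner ADAR start. RIGI, MAVS, CGAS, STING1 and the outer ADAR start had no match to these letters in the window. The RIGI sequence does hold tttcgattttc, in which 3 bases in place of 2 separate the repeats. Other spacings were not searched, so no match does not mean that such an element is absent.

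Fold enrichment cannot be compared between lists that were called separately, so each gene was scored by its strongest region, ranked among all regions of the same list in percentiles from 100 (top) down to 0 (no region). A change of at least 20 points was counted as large. For H3K27ac, 8 of the 10 genes had a region at a TSS in siCONT cells and 8 in siDLEU1 cells, since DHX58 lost its region and STING1 gained one. Of the genes of the whole annotation with an H3K27ac region in siCONT cells 5.62% lost it, and of those without one 0.361% gained it. The gained region of STING1 was weak, with a rank of 17.7. Among 54 genes without H3K27ac in siCONT cells whose H3K4me3 rank was at least that of STING1, itself included, 7.41% gained one. The rank was lower in siDLEU1 cells at 6 of the 8 genes, against 62.8% of all genes, and lower by at least 20 points at 2, IFIH1 and DHX58, against 19.3%. None was higher by at least 20 points (6.96%), although ADAR, at 18.0 points, passed that size under 3 of the alternatives (20.1 to 23.5 points). The median change over the 8 genes was −12.6 points, and it was −4.60 points over all 13596 genes with a region. For H3K4me3, 9 of the 10 genes had a region in both groups, and the rank was lower at 8 of them, against 48.1% of all genes. None of the 9 lost its region (3.24% of all genes), and ZBP1, the gene without one, did not gain any (3.65%). TLR3 alone among them was lower by at least 20 points, which 8.92% of all genes were, and none was higher by as much (7.07%). When peaks under a −log10 q of 10 were dropped, RIGI, IFIH1, DHX58 and EIF2AK2 were also lower by more than 20 points (−20.5 to −32.9). The share of all genes past that size was not computed with this cut, so these calls have no share to be read against. With all peaks, the median change was −10.5 points against 0.248 points over all 13673 genes.

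**Figure D1:**
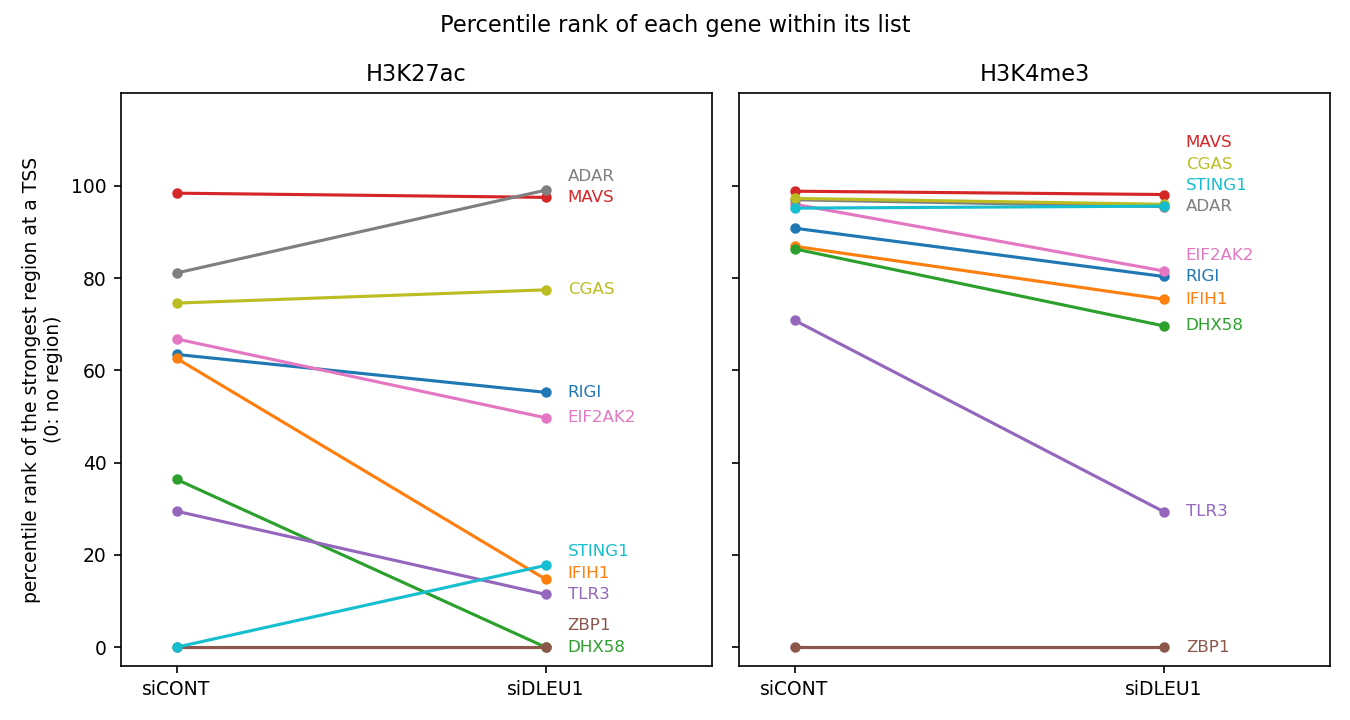
Percentile rank of the strongest region at a TSS of each gene (y axis, 0 for no region) in siCONT and siDLEU1 cells, for H3K27ac (left) and H3K4me3 (right), with 1 library per point. IFIH1 and DHX58 drop in H3K27ac and TLR3 in H3K4me3, while MAVS lies between 97.5 and 98.8 in both marks and groups.

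**Figure D2:**
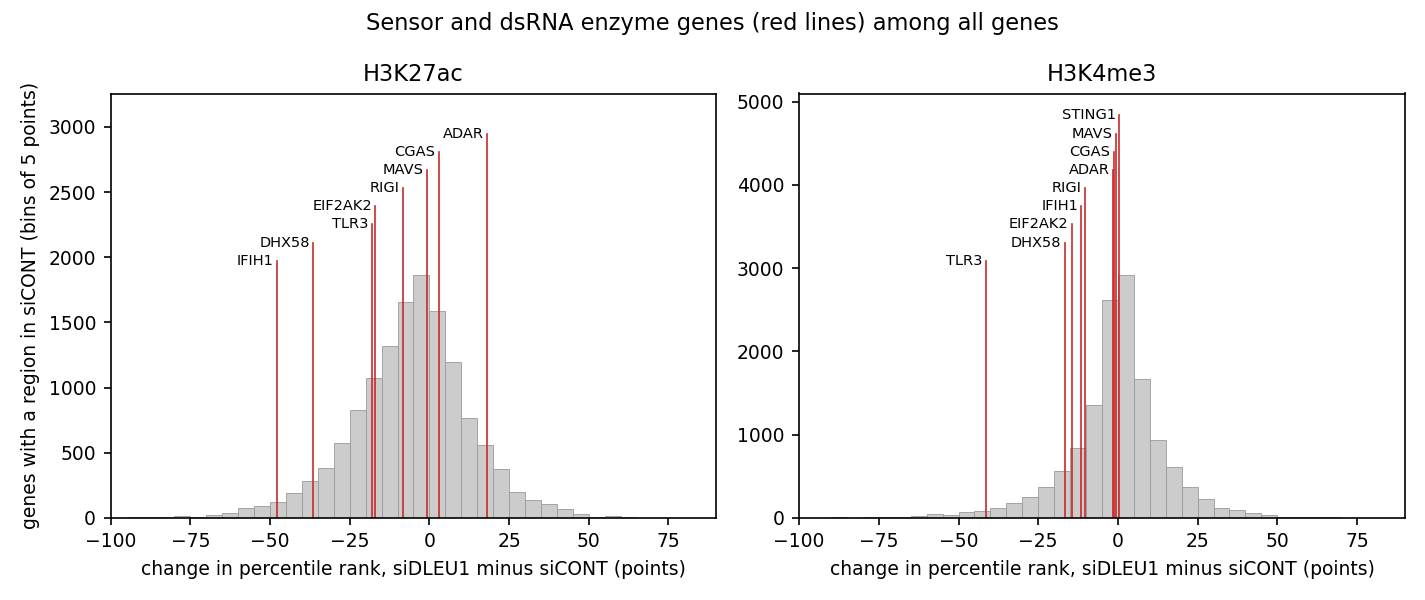
Number of genes (y axis) by change in percentile rank from siCONT to siDLEU1 (x axis, bins of 5 points) over all genes with a region in siCONT cells, with the genes described here as red lines whose heights carry no value. The median of all genes is −4.60 points for H3K27ac and 0.248 points for H3K4me3, and IFIH1 at −47.9 points lies in the low tail for H3K27ac.

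A rank says nothing about how many reads stood behind a region. In MACS2, 2 quantities, the whole number of fragments at a summit and the local background, determine both the fold enrichment and the p, so they could be solved for in every peak. The fragments are given below as such and per M recovered reads (fpm), and the local background in MACS2's scaled units, which are not fragments. At all siCONT regions at TSSs, the median ratio of siDLEU1 to siCONT fpm was 0.564 for H3K27ac (16027 regions) and 1.09 for H3K4me3 (22119 regions), and a single ratio has to be read against these. Each ratio carries its exact 95% interval, which covers counting error only and is too narrow because a summit is a chosen maximum. Beside it stands the share of siCONT regions at TSSs with similar fragment numbers (the same decile) whose ratio was as low. Regions not overlapped in siDLEU1 cells count as the lowest ratio in these shares and in the medians. Taking the strongest siCONT region of each promoter, 8 had an H3K27ac ratio. Of these, 2 had an interval wholly below the median ratio of all regions and none lay wholly above it. Over all regions at TSSs the shares were 16.6% and 4.99%. The 16.6% counts every region not overlapped in siDLEU1 cells as below, and these made up 15.3% of all. DHX58, also not overlapped, is not among the 8, so the count and the share are not alike. For H3K4me3, 4 of 10 were below and 1 was above, where the shares over all regions were 19.9% and 16.7%. All 10 were overlapped in siDLEU1 cells, whereas the 19.9% includes the 12.6% of regions that were not. Among regions overlapped in siDLEU1 cells, the strongest overlapping region was narrower at 8 of 8 promoters for H3K27ac, against 91.0% of all such regions, and at 9 of 10 for H3K4me3, against 57.6%.

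**Figure D3:**
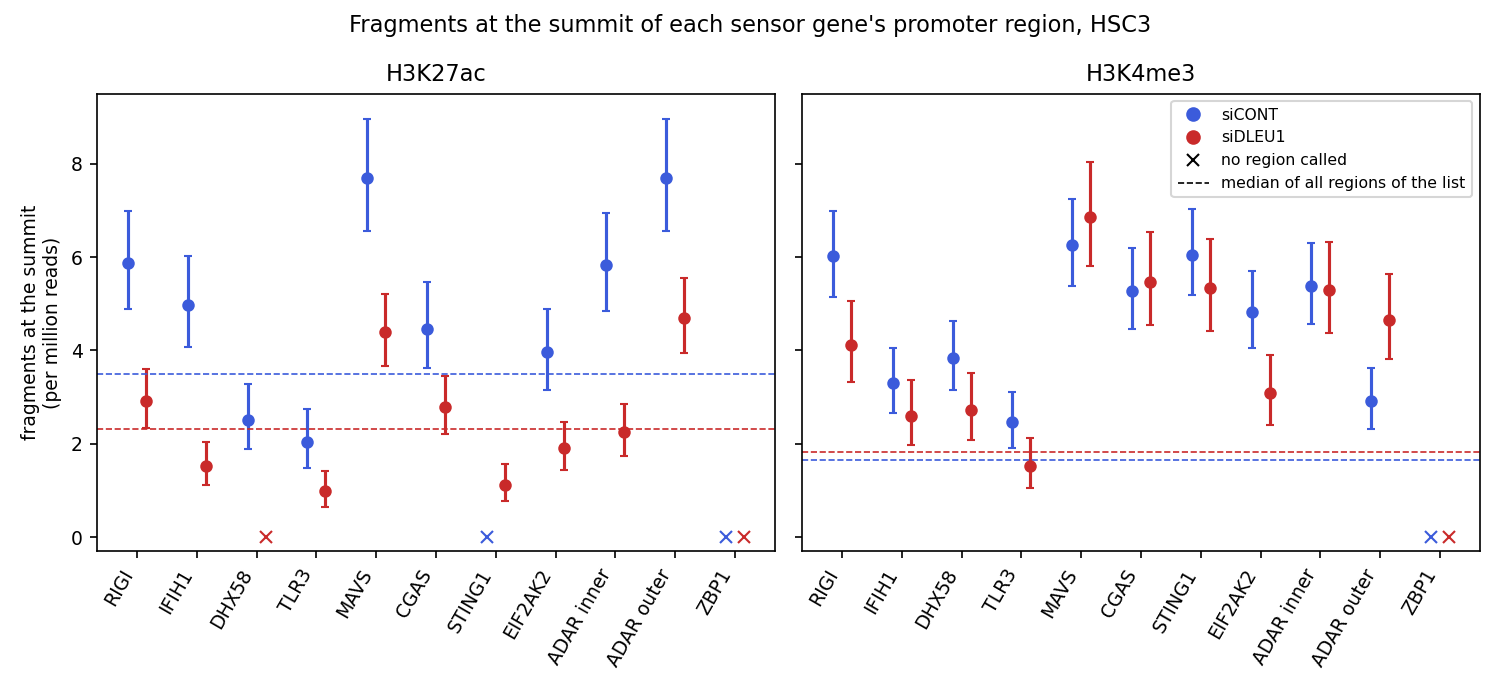
Fragments at the summit of the region at each promoter (y axis, per M recovered reads) in siCONT (blue) and siDLEU1 (red) cells, with exact 95% counting intervals, 1 library per point and crosses where no region was called. Dashed lines are the medians of all regions of each list, 3.49 and 2.31 fpm for H3K27ac and 1.65 and 1.84 fpm for H3K4me3. All H3K27ac points called in both groups are lower in siDLEU1 cells, as is the list median, whereas H3K4me3 points of MAVS, CGAS and the inner ADAR start lie close together.

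IFIH1, the gene of MDA5, lies on chromosome 2 from 163123584 to 163175194 on the minus strand. Its H3K27ac region in siCONT cells, chr2:163174161-163175690, covered the TSS and exon 1 and had 107 fragments (4.98 fpm), and in siDLEU1 cells it had 45 (1.53 fpm). The ratio was 0.307 (0.212 to 0.439), as low at 0.254% of comparable regions, and the rank went from 62.6 to 14.7. The region itself was nearly as wide as before, at 1292 bp against 1530 bp, so the height changed more than the extent. H3K4me3 at IFIH1 had 94 fragments (3.31 fpm) in siCONT and 58 (2.60 fpm) in siDLEU1 cells, a ratio of 0.786 (0.557 to 1.10) that was as low at 13.0% of comparable regions. Its rank was 86.9 and 75.4. The interval of the H3K4me3 ratio reached the median of all regions, and that of H3K27ac did not. These regions also lay within 1 kb of a TSS of GCA, the neighbouring gene, in all 4 lists, so the signal cannot be assigned to IFIH1 alone.

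DHX58, the gene of LGP2, is on the minus strand of chromosome 17. In siCONT cells a narrow H3K27ac region of 622 bp covered the TSS and exons 1 and 2 with 54 fragments (2.51 fpm) and a rank of 36.4. None was called in siDLEU1 cells, where the weakest region of the list had 19 fragments (0.646 fpm). A missing call is therefore no proof that acetylation was absent. Among siCONT regions with similar fragment numbers, 19.3% were not overlapped in siDLEU1 cells. The H3K4me3 region at the same start remained, with 109 fragments (3.83 fpm) in siCONT and 61 (2.73 fpm) in siDLEU1 cells. Its ratio was 0.713 (0.512 to 0.984), below the median of all regions, and as low at 5.40% of comparable regions, and its rank was 86.3 and 69.6. A weaker H3K4me3 region of 27 fragments upstream of DHX58 was called in siCONT cells alone, and 1 H3K4me3 region of DHX58 in siCONT cells was shared with a TSS of KAT2A.

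RIGI starts at position 32526194 of chromosome 9. Its H3K27ac region, chr9:32524773-32526631 in siCONT cells, had 126 fragments (5.87 fpm), and in siDLEU1 cells it had 86 (2.92 fpm). The ratio of 0.499 (0.375 to 0.661) included the median of all regions in its interval, and 16.5% of comparable regions were as low. The rank was 63.5 and 55.2. H3K4me3 had 171 fragments (6.01 fpm) in siCONT and 92 (4.12 fpm) in siDLEU1 cells, with a ratio of 0.686 (0.526 to 0.888) and 2.66% of comparable regions as low. At RIGI the mark that stood lower relative to all regions was thus H3K4me3, with a rank of 90.8 and 80.3. A second, small H3K4me3 region of 27 fragments was called upstream of RIGI in siCONT cells only.

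TLR3, on the plus strand of chromosome 4, starts at position 186990310. It was the weakest of these promoters with a region of both marks in both groups. In siCONT cells its H3K27ac region ran from −543 to 485 bp around the TSS and had 44 fragments (2.05 fpm). In siDLEU1 cells a region of 396 bp from −471 to −76 bp was left, with 29 fragments (0.986 fpm). It no longer covered this TSS, but it did cover another annotated TSS of TLR3, at 186990065. The ratio of the H3K27ac values was 0.481 (0.290 to 0.787), and 28.4% of comparable regions were as low. The H3K4me3 region, 1224 bp wide with 70 fragments (2.46 fpm) in siCONT cells, was broken up in siDLEU1 cells into a region of 439 bp with 21 fragments and one of 276 bp with 34 fragments (1.52 fpm). The ratio of the stronger one was 0.619 (0.398 to 0.945), below the median of all regions, with 5.76% of comparable regions as low. The rank of TLR3 was 29.5 and 11.5 for H3K27ac and 70.8 and 29.4 for H3K4me3.

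MAVS, the adaptor shared by RIG-I and MDA5, is on the plus strand of chromosome 20 and starts at position 3827481. It had the strongest H3K27ac rank of these genes in siCONT cells. Its region, chr20:3826851-3828244 in siCONT cells, had 165 fragments (7.68 fpm), and in siDLEU1 cells it had 129 (4.39 fpm). The ratio of 0.571 (0.450 to 0.723) was close to the median of all regions, and the rank was 98.4 and 97.5. H3K4me3 had 178 fragments (6.26 fpm) and 153 (6.86 fpm), with a ratio of 1.10 (0.877 to 1.37) and a rank of 98.8 and 98.1. In both marks MAVS thus moved as the regions of these lists did at large, with 58.1% and 46.7% of comparable regions as low.

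CGAS, the gene of the cytoplasmic DNA sensor, starts at position 74162020 of chromosome 6. H3K27ac had 96 fragments (4.47 fpm) in siCONT and 82 (2.79 fpm) in siDLEU1 cells, and the ratio of 0.624 (0.459 to 0.847) was slightly above the median of all regions. The siCONT region of 2274 bp was overlapped by 2 regions in siDLEU1 cells, of which the stronger, at the TSS, was 1251 bp wide. H3K4me3 had 150 fragments (5.27 fpm) and 122 (5.47 fpm), with a ratio of 1.04 (0.809 to 1.32). The rank of CGAS was 74.6 and 77.4 for H3K27ac and 97.3 and 96.0 for H3K4me3, so neither mark changed by more than a few points. CGAS also had 3 further H3K27ac regions in the gene or within 10 kb of it in siCONT cells and 2 in siDLEU1 cells, the second piece of the split region being 1 of these. DHX58 had 1 in both groups, and the other 8 genes had none.

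STING1, the receptor downstream of cGAS, starts at position 138862343 of chromosome 5 and showed strong H3K4me3 with little or no H3K27ac. H3K4me3 had 172 fragments (6.05 fpm) in siCONT and 119 (5.33 fpm) in siDLEU1 cells, a ratio of 0.882 (0.692 to 1.12). Its rank was 95.2 and 95.6, with a local background of 1 and 0.463 in scaled units. No H3K27ac region was called in siCONT cells. Of 2494 genes with an H3K4me3 rank at least as high, 54 (2.17%) had no H3K27ac region in siCONT cells either, STING1 included. In siDLEU1 cells a region of 292 bp, chr5:138861571-138861862, lay over exon 2, downstream of this TSS, with 33 fragments (1.12 fpm) and a rank of 17.7. It covered another annotated TSS of STING1, at 138861758, and had a −log10 q of 5.01, so it was not kept under a limit of 10. Among the 54 genes, 4 (7.41%) had such a region in siDLEU1 cells.

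EIF2AK2, the gene of PKR, starts at position 37384123 of chromosome 2. H3K27ac had 85 fragments (3.96 fpm) in siCONT cells in a region of 1265 bp that covered the TSS. In siDLEU1 cells it was broken up into regions of 552 bp with 56 fragments (1.90 fpm) and of 187 bp with 29 fragments, on either side of the TSS. The ratio at the stronger one was 0.481 (0.337 to 0.682), with 16.0% of comparable regions as low, and the rank was 66.8 and 49.7. H3K4me3 had 137 fragments (4.82 fpm) in siCONT cells and 69 (3.09 fpm) in siDLEU1 cells. This ratio, 0.642 (0.473 to 0.863), was below the median of all regions and as low at 2.72% of comparable regions, and the rank was 96.0 and 81.5. For H3K4me3 the order was the reverse of that of H3K27ac, with 2 regions in siCONT cells, and 1 region across the TSS in siDLEU1 cells that overlapped both. Against the weaker siCONT region, with 52 fragments (1.83 fpm), the same siDLEU1 region gave a ratio of 1.69 (1.16 to 2.47), above the median of all regions, so the direction of the H3K4me3 ratio at EIF2AK2 depends on which siCONT region is taken.

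ADAR, on the minus strand of chromosome 1, has 2 clusters of starts whose main TSSs are 19782 bp apart. The inner start at 154580662 belongs to the transcript with the longest coding sequence, 1226 codons, which encodes the interferon-inducible long form of the enzyme. At the outer start, around 154600444, the longest coding sequence has 931 codons, that of the constitutive short form. Transcripts of 931 codons are also annotated in the inner cluster, 1 of them at 154580662 itself, so the starts do not separate the forms cleanly. In siCONT cells both starts carried H3K27ac at about the same rank, 81.1 at the inner and 80.6 at the outer start. The inner region, chr1:154579501-154580702 in siCONT cells, had 125 fragments (5.82 fpm), and in siDLEU1 cells it had 66 (2.24 fpm). Its ratio was 0.386 (0.282 to 0.524), wholly below the median of all regions and as low at 0.627% of comparable regions, and its rank in siDLEU1 cells was 61.5. The summits in the inner region lay 439 bp apart, so the 2 values are not from the same point. A smaller H3K27ac region just upstream of the inner start went the other way relative to all regions, with 53 fragments (2.47 fpm) in siCONT and 61 (2.07 fpm) in siDLEU1 cells and a ratio of 0.841 (0.572 to 1.24). The outer region, chr1:154599496-154600738 in siCONT cells, had 165 fragments (7.68 fpm), and in siDLEU1 cells 138 (4.69 fpm). Its ratio was 0.611 (0.484 to 0.771), which 80.3% of comparable regions did not exceed. The intervals of the inner and outer ratios overlapped, and the difference was not tested. The rank of the outer region was 99.1 in siDLEU1 cells. Its recovered local background there was 0.475 in scaled units against 1.31 in siCONT cells, a value that enters the fold enrichment. When the regions were ranked by fragments instead, ADAR as a whole changed by 1.10 points for H3K27ac, in place of 18.0 points.

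For H3K4me3 the inner ADAR start had 153 fragments (5.38 fpm) in siCONT and 118 (5.29 fpm) in siDLEU1 cells, with a ratio of 0.983 (0.766 to 1.26). Its summits lay 672 bp apart, and the region was 3011 bp wide in siCONT and 2170 bp in siDLEU1 cells. The outer start had 83 (2.92 fpm) and 104 (4.66 fpm). That ratio, 1.60 (1.19 to 2.16), was the one with an interval wholly above the median of all regions. Its rank went from 63.9 to 92.1, again with a lower local background, 1.40 in siCONT and 0.521 in siDLEU1 cells. In fragments, H3K4me3 at the outer start was thus lower than at the inner start in siCONT cells and close to it in siDLEU1 cells.

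ZBP1, on chromosome 20, had no region of either mark within 1 kb of a TSS in any of the 4 lists. No region lay elsewhere in ZBP1 or within 10 kb of it. The lists hold called regions only, so a signal below the weakest call, 13 to 19 fragments by list, would not be seen.

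**Figure D4:**
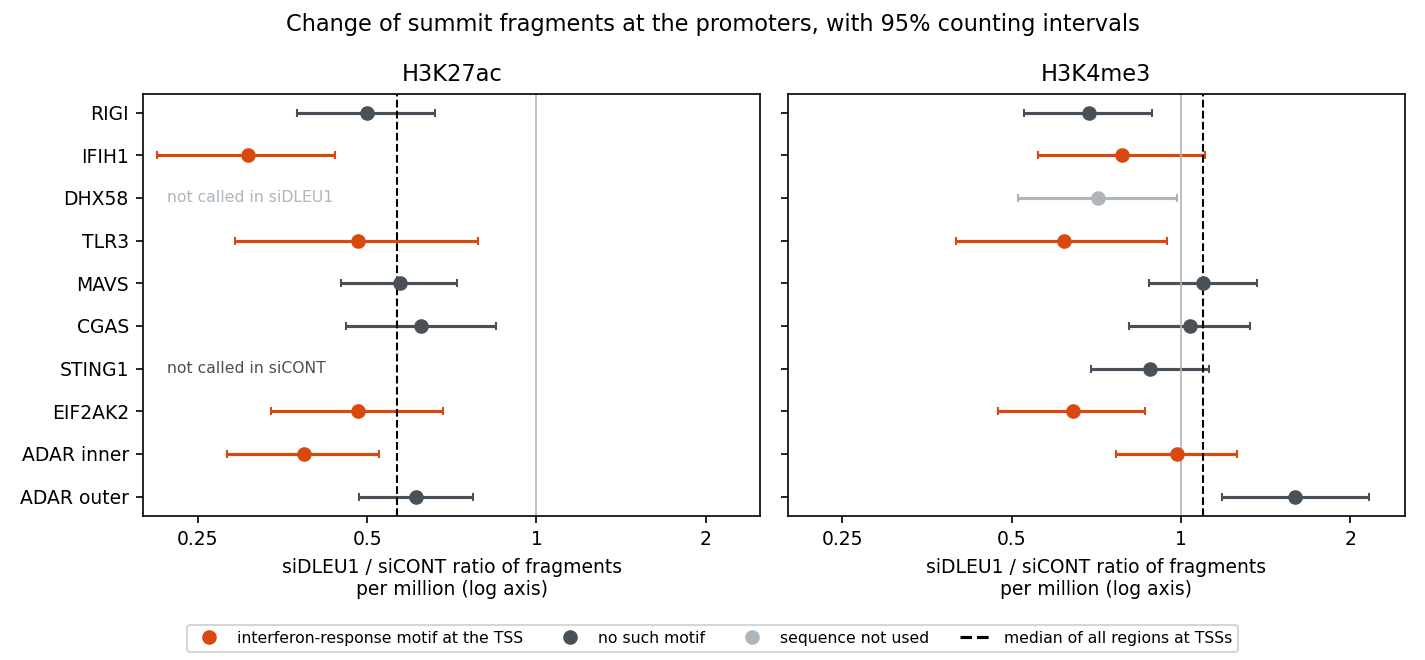
Ratio of summit fragments per M reads, siDLEU1 over siCONT (x axis, log scale), at each promoter with exact 95% counting intervals and 1 library per group. Orange marks the motif, which was chosen after the values were seen, light grey DHX58, whose sequence was not used, and the dashed line is the median of all regions at TSSs, 0.564 for H3K27ac and 1.09 for H3K4me3. The promoters with the motif lie left of the dashed line in both marks. So does RIGI, which has no match, and so do DHX58, CGAS and STING1 for H3K4me3. The outer ADAR start lies farthest right for H3K4me3. Only the strongest siCONT region of each promoter is drawn. The weaker H3K4me3 region of EIF2AK2 and H3K27ac region of the inner ADAR start, with ratios above the median, are left out.

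To be set beside the sequences, each promoter was read at its strongest siCONT region. The 4 with the motif and an H3K27ac region in both groups, IFIH1, TLR3, EIF2AK2 and the inner ADAR start, had H3K27ac ratios of 0.307 to 0.481. Of the 4 without it, RIGI was at 0.499 and MAVS, the outer ADAR start and CGAS were at 0.571 to 0.624. For H3K4me3, the ratios were 0.619 to 0.983 at the 4 promoters with the motif and 0.686 to 1.60 at the 5 without it, so the groups overlapped. Weaker siCONT regions at promoters with the motif had higher ratios, 0.841 for H3K27ac at the inner ADAR start and 1.69 for H3K4me3 at EIF2AK2. At RIGI, without the motif, the weaker H3K4me3 region was not overlapped in siDLEU1 cells. Over the rest of the annotation the medians with and without the motif lay close together. The median H3K27ac ratio was 0.558 at 340 regions of other genes with the motif and 0.573 at 10494 without it, and for H3K4me3 it was 1.05 and 1.13. Of these H3K27ac regions, 10.6% with the motif and 5.89% without it were not overlapped by any region in siDLEU1 cells. The median change in H3K27ac rank was −6.78 points at other genes with the motif and −4.54 points at those without it.

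The other genes of the pathway were taken as a list of 57 sensors, signalling partners and nucleic acid enzymes. Of these, 48 had an H3K27ac region in siCONT cells, and the rank was lower at 32 of them and higher at 16, with a median change of −4.41 points. That is close to the −4.60 points of all genes. The rank was lower by at least 20 points at 10 of the 48, where 19.3% of all genes were, and higher by as much at 3, where 6.96% were, so both counts were near those of all genes. By role, the H3K27ac rank was lower at 19 of 23 signalling partners (median −9.03 points), 5 of 10 sensors (median 0.0800 points) and 8 of 15 enzymes (median −0.307 points), where 62.8% of all genes were lower, and the differences between roles were not tested. For H3K4me3, 26 of 49 were lower, where 48.1% of all genes were, and 23 higher, with a median change of −0.699 points. The 3 sensors lower by at least 20 points, named here, like the one higher by as much, after their values were seen, were IFI16, a nuclear DNA sensor (77.4 and 29.3), DDX60, a helicase that assists RIG-I (92.9 and 48.2), and ZNFX1, a helicase that binds viral RNA (93.6 and 49.5). The sensor higher by at least 20 points was DDX1, an RNA helicase (64.2 and 85.4). AIM2, an inflammasome sensor of DNA, was the one gene whose H3K27ac region was lost, and that region was weak, with 20 fragments and a rank of 5.88. Its H3K4me3 rank was 98.6 and 94.0. SLFN11, a factor that cleaves tRNA and blocks replication under stress, had a lower rank in both marks, from 63.0 to 23.6 for H3K27ac and from 57.5 to 0 for H3K4me3. RNASEH2C, a subunit of the nuclease that removes RNA from RNA-DNA hybrids, had a higher rank in both, 56.1 and 95.8 for H3K27ac and 53.6 and 91.0 for H3K4me3. In fragments, RNASEH2C had 6.75 fpm in siCONT and 4.25 fpm in siDLEU1 cells for H3K27ac, and 2.99 and 4.57 fpm for H3K4me3.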

How the data were processed

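ChIP-seq of H3K27ac and H3K4me3 was examined in HSC3 cells transfected with siCONT or siDLEU1. Reads from an Ion Proton were aligned by the authors against hg19 (bowtie2), and peaks were called by MACS2 separately in each of the 4 libraries. The versions and options of these tools and the control library are not given in the sources used here. The fold enrichment (a ratio) in the deposited lists is that of MACS2 at the summit over the local background. MACS2 also gave the authors' −log10 p and −log10 q of each summit. A score that the deposited lists carry for display entered no step.

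Peaks on the autosomes and X were kept. TSSs were those of all GENCODE (lift37, release 44) transcripts of 24135 genes, 19140 protein-coding and 4995 lncRNA, and an overlap of at least 1 bp with the 1 kb on either side of a TSS placed a region at a gene. A region can count for several genes. The list of 10 genes, the list of pathway genes and the markers were chosen with earlier results of these data known. The 10 genes were all named. A pathway gene was named where an H3K27ac region at a TSS was lost or gained or where the rank changed by at least 20 points in both marks in the same direction, and neighbours sharing a region were named. At pathway genes and elsewhere no test was run, since there is 1 library per group.

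Fragments at the summit (k) and local background were solved for each peak from its fold enrichment and p, and all (100%) were solved. The local background is in MACS2's scaled units. In these, 1 fragment counts as 0.334 (siCONT H3K27ac), 0.229 (siDLEU1 H3K27ac), 0.252 (siCONT H3K4me3) or 0.301 (siDLEU1 H3K4me3). Fragments per M reads rest on library sizes computed with a genome of 2.7 Gb and, as fragment length, the shortest region of a list (187, 176, 200 and 186 bp for siCONT H3K27ac, siDLEU1 H3K27ac, siCONT H3K4me3 and siDLEU1 H3K4me3). Median fragments at a summit were 75, 68, 47 and 41. The recovery and the overlaps were tested on simulated data. Where several siDLEU1 regions overlapped a siCONT region, the strongest was used. Intervals are exact 95% intervals for Poisson counts and their ratios. Sequences were read from the GRCh37 genome, the build of the files, and those of the DHX58 and ZBP1 promoters are not reported here.

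The results were recomputed with a −log10 q of at least 10, windows of 3 and 5 kb, 1 TSS per gene, ranks by −log10 p or by recovered fragments, equal numbers of regions, an overlap of 50% of both regions, and regions within 1 kb stitched. Python 3.11.15, numpy 2.4.6, pandas 2.3.3, scipy 1.17.1, pysam 0.24.0 and matplotlib 3.10.9 were used.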

Additional observations from a re-analysis of the deposited data

How the results depend on the processing

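No paired analysis was possible because each siRNA and mark has 1 library, and for the same reason no replicate could be left out. With a −log10 q of at least 10, 5 genes had an H3K27ac region in siDLEU1 cells, and the median H3K4me3 change was −20.5 points. The median H3K27ac change was −17.6 points with 1 TSS per gene, −16.5 with ranks by −log10 p, −17.2 with ranks by fragments and −6.96 with equal numbers of regions. That of H3K4me3 was −11.8 with ranks by −log10 p, −12.2 with ranks by fragments and −14.3 with stitched regions, under which 100% of siCONT regions (10 of 10) were overlapped in siDLEU1 cells, in place of 84.6% (11 of 13, exact interval 54.6 to 98.1). For H3K27ac 90% (9 of 10, 55.5 to 99.7) were overlapped. Where a gene still had a region in either group, its direction was kept under every alternative run, with exceptions at ADAR, CGAS and STING1. For H3K27ac these were ADAR with 1 TSS per gene (−19.6 points) and CGAS with a −log10 q of at least 10 (−2.34 points). For H3K4me3 the exception was STING1, with ranks by −log10 p (−1.91 points) or by fragments (−5.05 points). With 1 TSS per gene, ADAR is read at its inner start alone. The cause of the others was not tested. STING1 had no H3K27ac region in either group with a −log10 q of at least 10, so its gain was not seen there. Under that limit on −log10 q, the H3K27ac change was −15.9 points at DHX58, short of 20, and past it at RIGI (−23.0) and EIF2AK2 (−36.3), and with ranks by fragments it was past it at TLR3 (−23.7). ADAR was higher by 23.5 points for H3K27ac under the same limit, by 20.1 with equal numbers of regions and by 23.2 with stitched regions, where EIF2AK2 was at −20.3. For H3K4me3, the limit put RIGI (−20.5), IFIH1 (−22.0), DHX58 (−32.9) and EIF2AK2 (−29.9) past 20 points beside TLR3, so that 5 genes were lower by as much in place of 1. Stitching put DHX58 (−20.9) and EIF2AK2 (−20.6) there. For ranks, no share or median over all genes was computed under any alternative, so these counts have none to be read against. Comparison of fragment ratios with regions of the same decile or with protein-coding genes, division by fragment length, and the motif were chosen after seeing the data. Against the median of the same decile, 5 of 8 H3K27ac and 9 of 10 H3K4me3 ratios were lower. Depth limits what can be seen at DHX58, STING1, TLR3 and ZBP1, where regions rest on few fragments or were not called.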
